A study of Arabidopsis thaliana with 64 samples.

Results

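The Arabidopsis line named FVE was compared with wild type on 4 arrays with 2 colour channels, which are all of the arrays whose titles begin with FVE among the 64 of the series. Every array gave 1 ratio per probe between total RNA of the line and total RNA of its comparator, and the FVE plants were 12 days old. The other 12 single lines set against wild type were CO, FCA, FD, FE, FHA, FPA, FT, FWA, FY, GAI, GI and SOC1. These and the double mutants FCAVRN1 and FCAVRN2, set against wild type and against FCA, were also 12 days old. FLC20 was set against C24 at 9 days. The titles put 2 of the FVE arrays at 16 h of light and 2 at 8 h, each group with 1 dye-swapped and 1 unswapped array of separately numbered biological replicates. The descriptions of all 4 FVE arrays give short days, so the day length of the arrays titled 16 h is in conflict. They are called 16 h by title below, and the mean of all 4 arrays is the main value. Neither the allele nor the tissue nor the dyes could be taken from the labels.

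FVE encodes a WD-40 repeat protein of the autonomous pathway, which promotes flowering in long and in short days alike. The protein acts in histone deacetylase and other chromatin-modifying complexes and keeps FLC, a MADS-box repressor of flowering, at a low level. Mutants of FVE flower late, carry high FLC expression and respond to vernalization. The locus was also recovered for its effect on cold-responsive genes. FCA and FPA, which are RNA-binding proteins, and FY, a polyadenylation factor, act in the same pathway.

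Ratios are given as log2 values of the line over wild type. The labels do not settle the direction: a positive value is taken as higher in FVE, which is likely because the descriptions set the line against wild type and the line is channel 1 on the unswapped arrays. If the ratio ran the other way on all arrays, every higher value below would be a lower one. None of the 30 arrays of other lines with the same dye orientation correlated below -0.3 with any FVE array, a check that does not bear on swapped against unswapped arrays. Whether the swapped arrays had been turned before deposit is not stated, and they were treated as turned. Over all probes, each swapped FVE array correlated weakly below 0 with each unswapped one, at r between -0.034 and -0.200. With the sign of the swapped arrays turned, 54 of 75 named values below would change sign and none would be called, so the signs rest on this choice. On probe SP0000127622 in FCA, the swapped arrays had 1.89 and 1.27 as deposited, and the unswapped arrays 1.97 and 1.05. In FLC20 the swapped arrays had -2.30 and -2.12, and the unswapped arrays -2.46 and -1.79. These values are of 1 probe, and the turning was not tested further. A probe is said to have risen or fallen where limma's adjusted p lay under 0.05. The p-values, SEs and intervals of the main fit use the spread pooled over the groups of all arrays of the series. They do not measure the spread of the FVE arrays alone, so an SE can lie below or above what the FVE values would give. Where n is given with an SE, it counts the arrays in the mean. In RNA of bulk tissue fewer cells of a type and less RNA per cell cannot be told apart.

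The 4 arrays were unequal in spread. The share of ratios beyond 2-fold was 1.69% on replicate 1 of 16 h by title and 0.195% on its replicate 2, against 0.0868% on replicate 1 and 0.137% on replicate 2 of 8 h. Replicate 1 of 16 h by title thus stood apart, and over all probes it correlated with an array of the FT line at 16 h, of the same dye orientation, at r = 0.806. Replicate 2 of 16 h by title correlated with an array of the CO line at 16 h at r = 0.628. The 4 FVE arrays agreed little among themselves over all probes, with r between -0.200 and 0.343. Once each array was set relative to the average array of its dye orientation, r lay between -0.344 and 0.132, and the lowest value was that of the 2 arrays titled 16 h. No probe is named for FVE itself or for FLC in the annotation used here, so the targeted gene could not be checked. The 50 probes of the dehydrin gene AT1G54410 had an SD within an array between 0.121 and 0.267.

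A single probe rose in FVE and a single probe fell, and neither carries a gene name in the annotation used here. These 2 called probes are 0.0145% of the 13824 probes tested. At an unadjusted p under 0.05 there were 680 probes, or 4.92%, with 285 higher and 395 lower. The mean ratio had an SD over probes of 0.112, against a median SE of 0.0911.

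Probe SP0000127622 had log2 ratios of 1.63 and 0.93 on the arrays titled 16 h and of 1.05 and 1.53 on the 8 h arrays. All 4 values were well above 0 and the title groups overlapped. The mean was 1.28 ± 0.15 (SE, n = 4), a 2.44-fold rise over wild type with a 95% interval of 0.98 to 1.58 (limma, Benjamini-Hochberg adjusted p = 3.82621e-06). It had the smallest p of all probes and was the only probe with a mean beyond 2-fold. The 2 title groups averaged 1.28 at 16 h by title and 1.29 at 8 h. Without any 1 of the 4 arrays, its mean lay between 1.12 and 1.45 and it was still called.

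Among the other 12 single lines with wild type as comparator, the same probe was also called in FCA and FY and in no other. The double mutants were not tested. FCA had a mean of 1.54, with array values between 1.05 and 1.97. FY had a mean of 0.82, with values between 0.37 and 1.4. FPA had a mean of 0.49 and the widest relative range, between 0.02 and 1.02. The FVE arrays overlapped with those of FCA and lay above 3 of the 4 FY arrays. In the 9 remaining lines with wild type as comparator the means ran from -0.21 in FD to 0.14 in GAI. Of their 36 arrays, 1 lay above the lowest FVE array, a GAI array titled 16 h with 0.96. In FLC20, whose plants were 9 days old and whose comparator was C24, the mean was -2.17 and also passed the test (limma adjusted p = 6.6e-13). In the double mutant FCAVRN1 the values were 0.01 and 0.25 against wild type and 0.00 and -0.16 against FCA. In FCAVRN2 they were 0.72 and 0.77 against wild type and 1.69 and 0.94 against FCA. The values against FCA do not follow from those of FCA and of the double mutants against wild type. The arrays against FCA are titled 16 h, however, and those of the double mutants against wild type 8 h. For FCAVRN1 the descriptions give short days to the 16 h titles and long days to the 8 h titles. Why the values do not add up was not tested.

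The difference between FVE and the other 12 lines set against wild type was tested directly, and SP0000127622 was the only probe that passed. It was 1.05 ± 0.15 higher in FVE (SE, 95% interval 0.73 to 1.36, limma adjusted p = 0.000933), and it makes up 0.00723% of the probes tested. At an unadjusted p under 0.05 this comparison had 258 probes, or 1.87%. The call was lost without replicate 2 of 8 h (0.91, adjusted p = 0.0623) and without replicate 1 of 16 h by title (0.88, adjusted p = 0.134). Against the mean of FCA, FPA and FY the probe was 0.33 ± 0.17 higher in FVE, with a 95% interval of -0.01 to 0.68, and was not called. No probe was called in that comparison (0% of the probes, smallest limma adjusted p 0.531), and 451 probes, or 3.26%, had an unadjusted p under 0.05. Whether the arrays of different lines shared wild type RNA is not given.

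**Figure D1:**
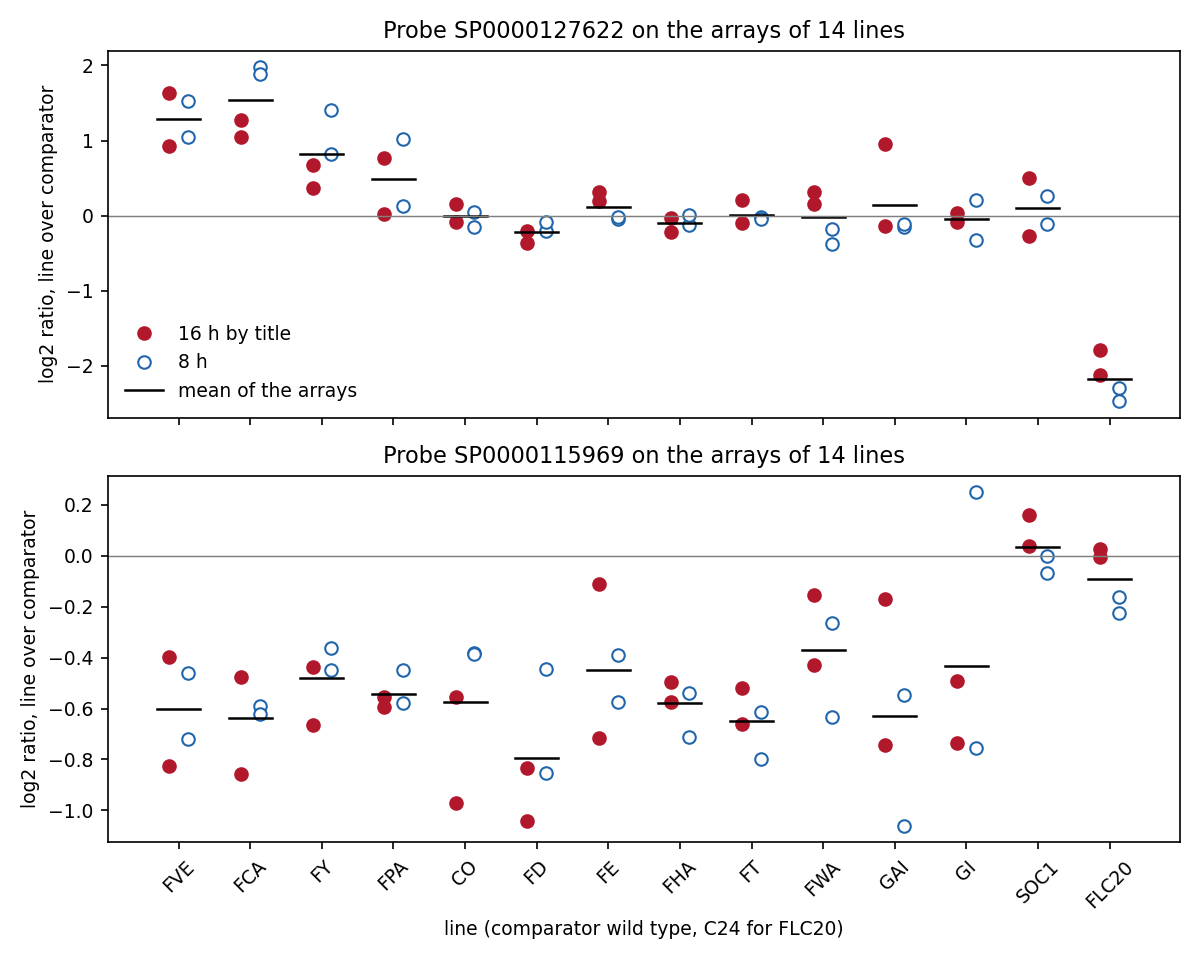
Log2 ratios of the 2 called probes on every array of the single lines, FVE at the left, with filled red points for 16 h by title, open blue points for 8 h and a bar for the mean of the arrays. SP0000127622 stands at 1.28 in FVE, 1.54 in FCA, 0.82 in FY and 0.49 in FPA, and SP0000115969 lies below 0 on most arrays of most lines.

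Probe SP0000115969 had log2 ratios of -0.82 and -0.40 on the arrays titled 16 h and of -0.72 and -0.46 on the 8 h arrays. The 4 values lay below 0 and the title groups overlapped. The mean fell by 0.60 ± 0.11 on the log2 scale (SE, n = 4), a 1.52-fold lower level than in wild type (limma adjusted p = 0.0262). The call did not hold without replicate 1 of 16 h by title (-0.51, adjusted p = 1.00), replicate 1 of 8 h (-0.55, 0.392) or replicate 2 of 8 h (-0.65, 0.0736), although the mean stayed about as large. The probe was also low in most other lines: it was called in 7 of the other 12, and 32 of the 36 arrays of lines outside the autonomous pathway lay below 0. FVE minus the mean of those 12 lines was -0.09, with a limma adjusted p of 1.00.

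The probes next in order of p also have no gene name. They were picked after their values were seen and none passed the test. SP0000119123 was at 1.78 and 0.98 on the arrays titled 16 h and at 0.81 and -0.02 on the 8 h arrays, so that 1 of the 4 was near 0. Its mean was 0.89 ± 0.18 (SE, limma adjusted p = 0.0819), and in the FHA line the same probe had a mean of 0.90. SP0000125863 lay between 0.46 and 1.13 on all 4 arrays, with a mean of 0.76 (adjusted p = 0.153).

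No named gene passed the test. Of 6341 named probes, 211 lay above 0 on all 4 arrays and 164 below 0 on all 4; over all probes these shares were 3.09% and 2.86%. The 12 named probes with the largest positive means of 1 sign had log2 values between 0.28 and 0.49, and the 12 with the most negative had values between -0.82 and -0.39. These are described as values only. In many of them replicate 1 of 16 h by title was the most extreme array, and for those of them described below the mean without it is given where it moved by over 1.5 times.

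Among the higher values, CCS encodes the copper chaperone that loads copper into superoxide dismutase. Its probe SP0000118222 had values of 0.50 and 0.46 on the arrays titled 16 h and of 0.04 and 0.45 on the 8 h arrays, with a mean of 0.36 ± 0.10 (SE, limma adjusted p = 0.521). Its other probe, SP0000127422, had 0.35 and 0.23 at 16 h by title and 0.15 and 0.46 at 8 h, with a mean of 0.30. Both probes were thus positive on all 4 arrays, and without replicate 1 of 16 h by title they kept means of 0.31 and 0.23. In FCA, FPA and FY their means were between 0.08 and 0.23.

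UBP21, a ubiquitin-specific protease, had the highest mean of the named probes that agreed in sign. Its values were 0.82 and 0.03 on the arrays titled 16 h and 0.48 and 0.63 on the 8 h arrays, with a mean of 0.49 ± 0.14 (SE, limma adjusted p = 0.521). Without replicate 1 of 16 h by title the mean was 0.24. The other 12 lines had a mean of 0.27 on this probe, and FVE minus that mean was 0.22. AT5G46780, which lies 3 protein-coding genes away from UBP21 on chromosome 5, had 0.60 and 0.27 at 16 h by title and 0.28 and 0.21 at 8 h. The mean of this probe, SP0000125112, was 0.34, and 0.29 without that replicate. The other probes of AT5G46780 had means of 0.31 and 0.11. On SP0000125112 the other 12 lines had a mean of 0.22, and FVE minus that mean was 0.12.

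TPI, cytosolic triosephosphate isomerase of glycolysis, had means of 0.32 and 0.20 on its 2 probes, which were 0.21 and 0.08 without replicate 1 of 16 h by title. On SP0000118513, its probe at 0.32, the other 12 lines also had a mean of 0.32. GR1, glutathione reductase, had means of 0.38 and 0.16, which were 0.04 and -0.03 without that array. AT4G22470, of the lipid transfer protein family, showed the same dependence: its probe SP0000122271 had 1.61 and 0.00 at 16 h by title and 0.06 and 0.06 at 8 h. Its mean of 0.43 was 0.04 without the array at 1.61. By contrast probes of AT3G47080, AT5G20670 and AT1G03440 had means of 0.29, 0.28 and 0.28, and without that array 0.33, 0.26 and 0.34. On these probes, in the same order, the other 12 lines had means of 0.18, 0.09 and 0.05. The other probe of AT1G03440, SP0000117719, had a mean of -0.04, so the probes of this gene did not agree.

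Among the lower values, AT4G27450 gave the most negative means. It encodes a protein with YGL and LRDR motifs of a family named for induction by aluminium. Its probe SP0000119078 had values of -1.69 and -0.13 on the arrays titled 16 h and of -0.36 and -1.11 on the 8 h arrays, with a mean of -0.82 ± 0.21 (SE, limma adjusted p = 0.453). The other 3 probes had means of -0.66, -0.58 and -0.51. All 4 probes lay below 0 on all 4 arrays, and without replicate 1 of 16 h by title their means lay between -0.45 and -0.31. The gene was also low in FY, where the probe means ran from -0.59 to -0.40, and nearer 0 in FCA and FPA, between -0.25 and -0.07. FVE minus the mean of the other 12 lines lay between -0.19 and -0.09 over the 4 probes, none called.

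PORB lies next to AT4G27450 on chromosome 4, with no protein-coding gene between them, and encodes a light-dependent protochlorophyllide oxidoreductase of chlorophyll synthesis. Its probe SP0000127401 had values of -1.09 and -0.15 on the arrays titled 16 h and of -0.67 and -0.24 on the 8 h arrays, with a mean of -0.54 (limma adjusted p = 0.995). A second probe of the gene had a mean of -0.39. Without replicate 1 of 16 h by title the means of these probes were -0.35 and -0.28. The remaining 3 probes had means of -0.56, -0.04 and -0.02, so the probes of PORB did not agree. The other 12 lines had means of -0.38 on SP0000127401 and -0.34 on the second probe, SP0000123142.

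PDF1.2 encodes a plant defensin that responds to jasmonate and ethylene, and AT2G43590 a protein of the chitinase family. PDF1.2 probe SP0000119092 had -1.40 and 0.00 on the arrays titled 16 h and -0.29 and -0.84 on the 8 h arrays, with a mean of -0.63 ± 0.29 (SE, limma adjusted p = 1.00). The other PDF1.2 probe had a mean of -0.53 and was below 0 on all 4 arrays. Without replicate 1 of 16 h by title both means were -0.28. Of the 4 probes of AT2G43590, 3 had means of -0.51, -0.40 and -0.36, and the other had -0.05. Without that array the 3 means were -0.33, -0.17 and -0.20.

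The means of both genes over the arrays of a line stood on opposite sides of 0 within the autonomous pathway. PDF1.2 had means of -1.52 and -1.13 on its 2 probes in FCA, 0.81 and 0.65 in FPA and 1.17 and 0.77 in FY. Of these, the means of SP0000119092 passed the test in FCA (limma adjusted p = 0.0122) and in FY (0.0243). Its values differed with the titled hours. In FY they were 2.51 and 1.69 at 8 h and 0.54 and -0.06 at 16 h. In FCA they were -0.58 and -0.95 at 8 h and -1.75 and -2.80 at 16 h. The 3 probes of AT2G43590 that were low in FVE had means between -0.82 and -0.65 in FCA, between 0.49 and 0.54 in FPA and between 0.17 and 0.34 in FY. On SP0000123630 none of these passed (limma adjusted p = 0.0856 in FCA, 0.243 in FPA and 0.485 in FY). The values of SP0000123630 differed with the titled hours as well. In FY they were 1.25 and 1.00 at 8 h and -0.01 and -0.92 at 16 h. In FPA they were 1.07 and 1.72 at 8 h and -0.52 and -0.12 at 16 h. In FCA they were -0.27 and -0.29 at 8 h and -1.34 and -1.38 at 16 h. FVE minus the mean of the other 3 lines was -0.79 ± 0.33 for SP0000119092 of PDF1.2 and -0.53 ± 0.22 for SP0000123630 of AT2G43590 (SE), and neither passed the test (limma adjusted p = 1.00 for both). The arrays of FPA and FY spread widely for both genes, as the plot of these probes by line shows.

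**Figure D2:**
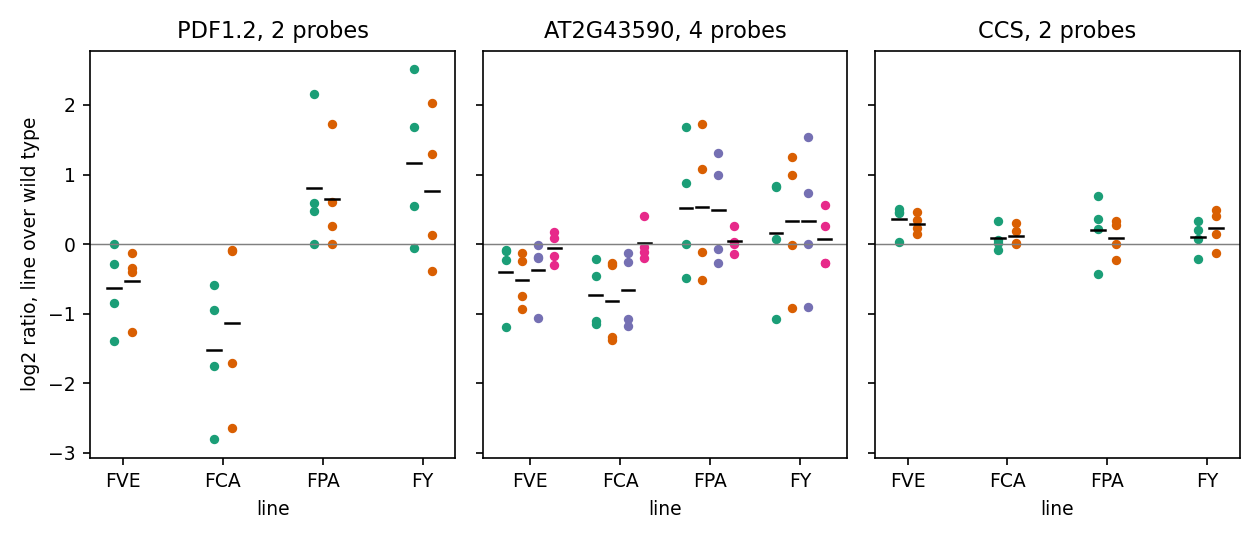
Log2 ratios over wild type of the probes of PDF1.2, AT2G43590 and CCS on the 4 arrays of FVE, FCA, FPA and FY, with 1 colour per probe and a bar for the mean. PDF1.2 lies at or below 0 on all arrays of FVE and FCA, while its arrays of FPA and FY reach 2.16 and 2.51.

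**Figure D3:**
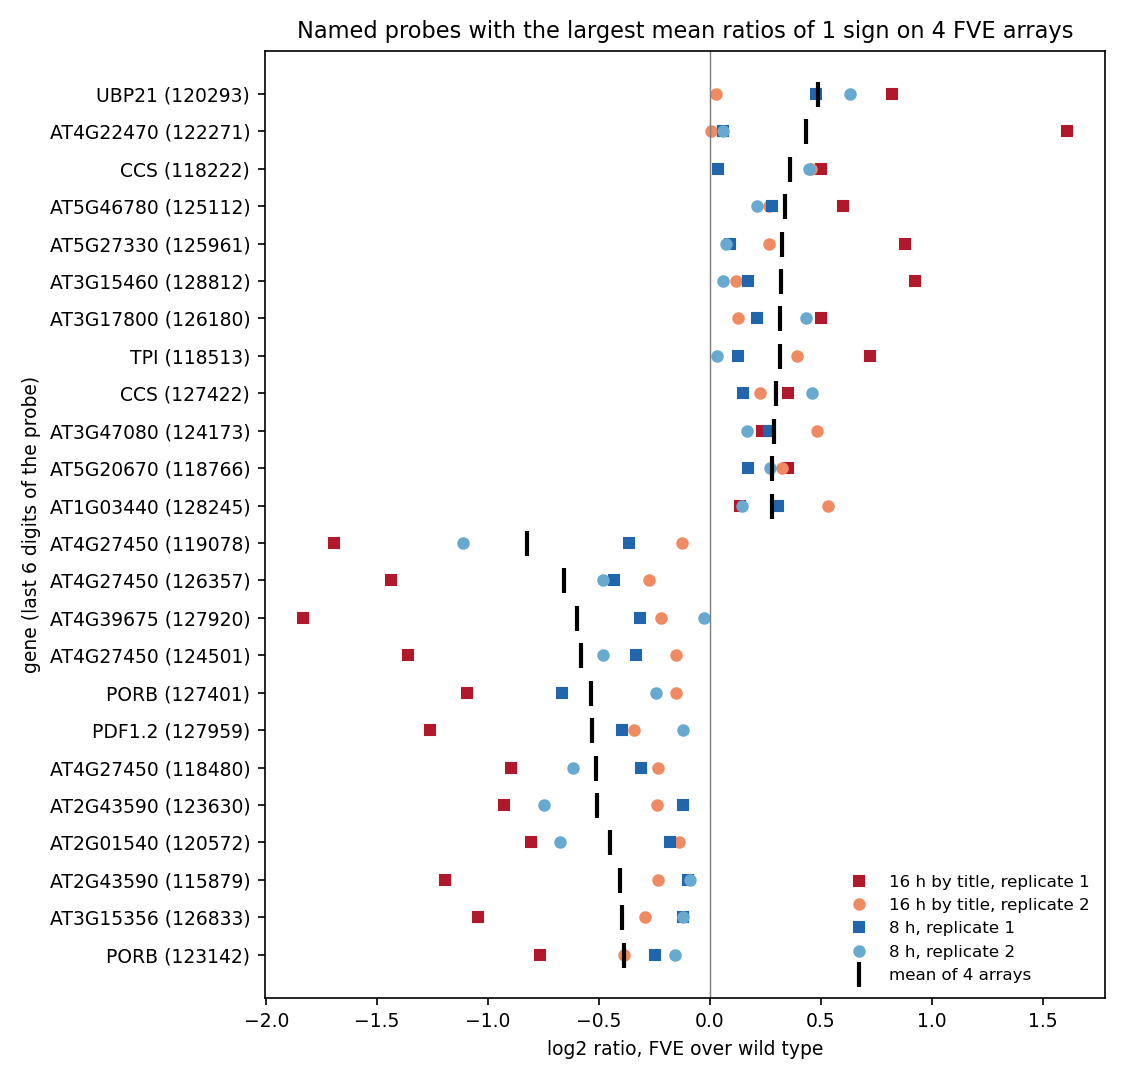
Log2 ratios over wild type of the 24 named probes with the largest means of 1 sign on 4 FVE arrays, with squares for replicate 1, circles for replicate 2 and a bar for the mean. Replicate 1 of 16 h by title, in dark red, is the outermost point for most of the probes on the left.

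Of the flowering regulators, 3 of 45 listed genes had a named probe, and none passed the test. FPA, the RNA-binding protein of the autonomous pathway, had a mean of -0.08 (95% interval -0.23 to 0.07). LD, a homeodomain protein of the same pathway, had 0.04 (-0.10 to 0.19). SNZ, an AP2-type repressor of flowering, had -0.07 (-0.26 to 0.12). Each interval spans 0 and lies within a 2-fold change in either direction. FLC, SOC1, FT and the other listed flowering genes have no named probe and were not analysed here.

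CUL4, the cullin of a ubiquitin ligase in which FVE takes part, was the only measured gene of 24 listed for histone deacetylation and chromatin silencing. Its 4 probes had means of 0.08, 0.01, -0.01 and -0.05, and none passed the test. All of their intervals lay between -0.30 and 0.26.

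Of the cold and drought response, 4 of 33 listed genes were measured on 7 probes, and none passed the test. The median over the genes was -0.03, beside -0.00166 over all probes. COR47, a dehydrin induced by cold, had means of -0.04 (95% interval -0.18 to 0.10) and -0.07 (-0.27 to 0.14). STZ, a zinc finger protein induced by salt and cold, had 0.08, -0.05 and -0.03 on its 3 probes. KIN2 was the most variable, with values of -0.92 and 0.32 on the arrays titled 16 h and of -0.44 and 0.34 on the 8 h arrays. Its mean was -0.17, and its interval of -0.55 to 0.20 is the widest of the list. Without replicate 1 of 16 h by title the mean was 0.099, and those of STZ were -0.10, -0.047 and -0.15. The dye-swapped arrays of KIN2 are the negative ones and the unswapped arrays the positive ones, and the fit holds a term for orientation.

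Photosynthesis was the best covered list, with 10 of 48 genes on 22 probes. None passed the test. Of the 22 probes, 17 had a mean below 0, beside 50.8% of all probes, and 4 had an unadjusted p under 0.05, beside 4.92% of all probes. The median over the genes was -0.15. The median of the 22 probes was -0.73 and 0.00 on the arrays titled 16 h, against -0.03 and 0.11 on the 8 h arrays. Replicate 1 of 16 h by title alone was low: 20 of the 22 probes lay below 0 on it, beside 6180 of all 13824 probes. Without that array the median over the genes was 0.01, 10 probes had a mean below 0 and none had an unadjusted p under 0.05. Without replicate 2 of 16 h by title, replicate 1 is the only array of its group, and calls among these probes are not read here.

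PSAN, a lumenal subunit of photosystem I, shows this at the level of 1 gene. PSAN, PSBW and PRK are among the 4 genes of the list picked for the largest absolute means. Its probe SP0000124922 had -2.31 and 0.27 on the arrays titled 16 h and -0.30 and -0.07 on the 8 h arrays, with a mean of -0.60 ± 0.27 (SE, limma adjusted p = 1.00). Without replicate 1 of 16 h by title the mean was 0.02. PSBW, a small subunit of photosystem II, had means of -0.37 and -0.24, and PRK, phosphoribulokinase, had means of -0.30, -0.18 and -0.08. Without that array they were 0.05 and 0.13 for PSBW and -0.18, -0.01 and 0.05 for PRK. AT2G26500, a subunit of the cytochrome b6f complex, had means of -0.32 and -0.47, with -1.13 and -1.64 on that same array and means of 0.03 and -0.02 without it. AT5G02160 had means of -0.44 and -0.41, and 0.03 and -0.02 without it. EXPA7, an expansin of root hairs and the only root marker measured, had -0.77 on that array as well, against -0.02 to 0.17 on the other 3. Their part in each other's values was not tested. The clock, salicylate, floral organ and seed storage lists had no named probe.

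**Figure D4:**
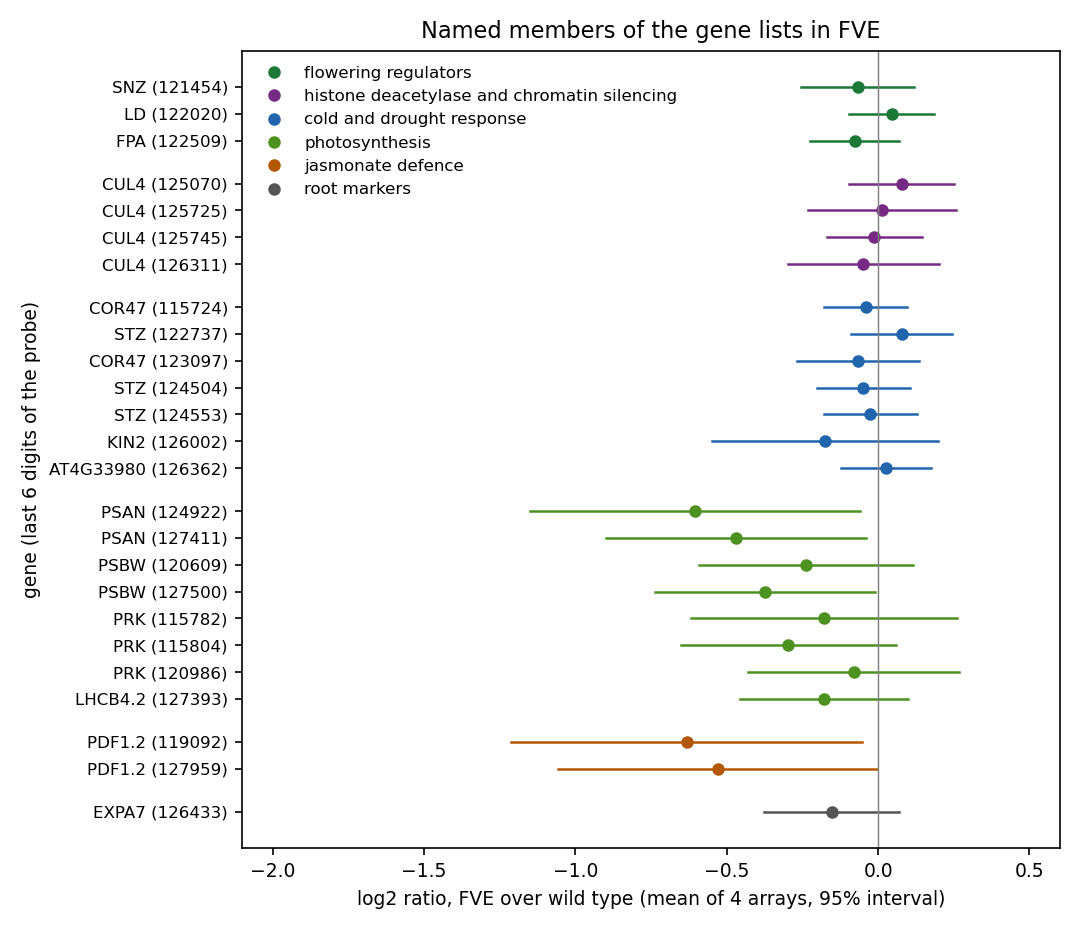
Mean log2 ratio over wild type on 4 FVE arrays with 95% intervals from limma for the named members of 6 gene lists. For photosynthesis only the 4 genes with the largest absolute means are shown. The intervals use the spread pooled over the groups of all arrays of the series. Flowering, chromatin and cold genes lie between -0.17 and 0.08, and the intervals of PSAN, PDF1.2 and 1 probe of PSBW lie below 0 although none passed the adjusted test.

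The 2 title groups were compared because the descriptions give 1 day length for both. No probe was called for 16 h by title minus 8 h (0% of the probes, smallest limma adjusted p 0.281), and 562 probes, or 4.07%, had an unadjusted p under 0.05. The 2 groups did not overlap for 3656 probes, or 26.4%. Without replicate 2 of 16 h by title, which leaves replicate 1 as the only array of its group, 32 probes were called, 8 higher and 24 lower. In the same case 173 probes were called for the mean of FVE, 48 higher and 125 lower. The remaining array of the group was then assumed to vary like the other groups.

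The largest differences among named probes whose title groups did not overlap are given as values. AT1G72910, a protein with a TIR domain, had 0.72 and 0.62 on the arrays titled 16 h and -0.13 and -0.61 on the 8 h arrays, a difference of 1.04 ± 0.27 (SE). AT1G07750, of the cupin family, had 0.85 and 0.98 at 16 h by title and 0.08 and -0.03 at 8 h. GSTU25, a glutathione transferase, had 0.84 and 0.64 at 16 h by title and -0.21 and -0.05 at 8 h. These 3 genes had 1 probe each. That both arrays titled 16 h stood apart from both 8 h arrays was the condition for picking them, met by 26.4% of all probes.

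AT2G34620, of the mTERF family of organelle proteins, had -1.01 and -0.45 on the arrays titled 16 h and 0.30 and 0.13 on the 8 h arrays, a difference of -0.94 ± 0.24 (SE). AT3G28550, a proline-rich extensin-like protein, had -0.72 and -0.76 at 16 h by title and 0.12 and 0.30 at 8 h on probe SP0000125071. Its probe SP0000125666 had -0.58 and -0.71 at 16 h by title and -0.10 and 0.28 at 8 h, while differences of 0.05 were found on each of its remaining 2 probes. AT2G10940, AT2G40270 and AT3G02630 each had a large difference on 1 probe, of -0.82, -0.76 and 0.79, and differences between -0.23 and 0.14 on their other probes.

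**Figure D5:**
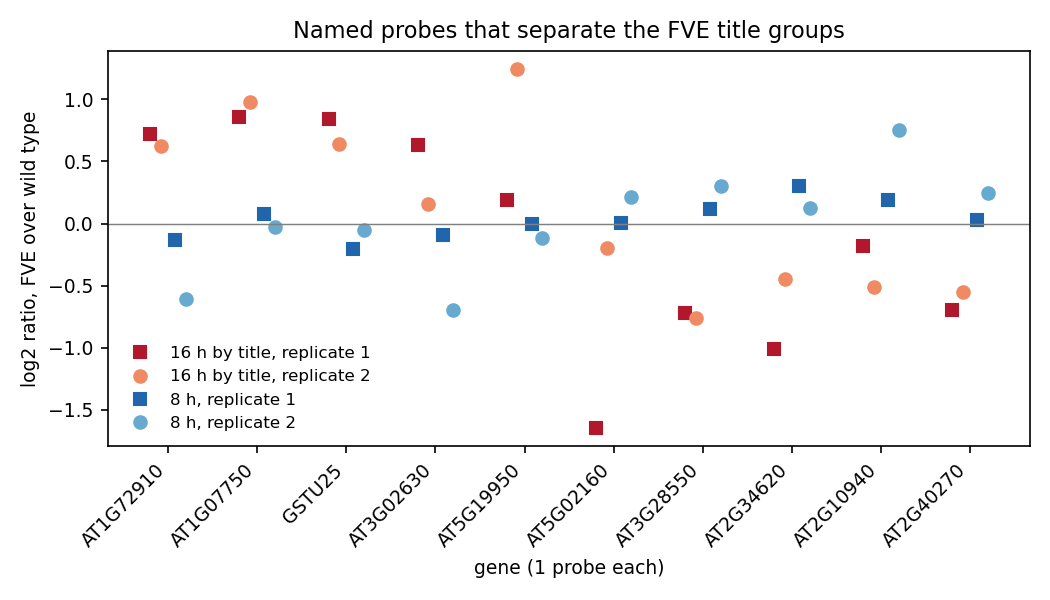
Log2 ratios over wild type on the 4 FVE arrays for 10 named probes, with 16 h by title in red and orange and 8 h in blue. They have the largest differences among named probes whose title groups did not overlap. The differences run from 1.04 for AT1G72910 to -1.03 for AT5G02160, and none passed the adjusted test.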

How the data were processed

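Total RNA of Arabidopsis lines and of a comparator was set together on arrays with 2 channels. The deposited values are linear ratios of the channels with a median of 1 per array, after a spatial normalization by the authors per the labels' descriptions. Background correction, spot filters and whether swapped arrays were turned are unstated in the labels; the ratios were treated as turned already. No scanner files were used, so the number of arrays limits the precision.

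Ratios were taken to log2. One limma 3.58.1 fit (R 4.3.3) covered all 64 arrays with 1 mean for each group and a dye orientation term; the GI_16h arrays of the same biological replicate were averaged. Prior and residual degrees of freedom were 5.17 and 30. Two-sided p-values were adjusted (Benjamini-Hochberg) over 13824 probes within each contrast. The fit was tested on simulated data.

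The annotation gave 6341 probes 1 name and 7483 none; 6322 matched the TAIR10.1 gene table, used for names and gene neighbours. Named probes were those called; the 12 largest and 12 smallest means of 1 sign on 4 arrays; 6 genes in each direction with several probes of 1 sign; 5 probes in each direction for the title groups; and list members, up to 4 for lists other than flowering, chromatin and cold. The probes for the title groups had the largest differences among named probes whose 2 groups did not overlap. Where a list was cut to 4 genes, those with the largest absolute mean over their probes were taken. The members and the 10 lists were chosen with earlier results of these data known. Alternatives covered scaling, quantile normalization, dye term, sign of swapped arrays, array weights, robust moderation, ratios of exactly 1, samples fitted, replicate block, probes per gene and single arrays left out.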

Additional observations from a re-analysis of the deposited data

Results flagged for a closer look

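Replicate 1 of 16 h by title had 1.69% of its ratios beyond 2-fold, and its gap to the other 3 FVE arrays exceeded Dixon's 95% limit for 4 values. Of 73 named probes, 7 probes had such an array. Many of these probes were picked by their FVE values and some share a gene, so the 1 in 20 of the limit is no measure for them. The share over all probes was not computed. Replicate 1 of 16 h by title was that array for AT4G22470 (1.61), AT3G15460 (0.93), AT4G39675 (-1.83), AT2G43590 (-1.19 on SP0000115879) and PSBW (-1.72 on SP0000127500). Replicate 1 of 8 h was the low array for CCS (0.037 on SP0000118222). Replicate 2 of 8 h was the low array for STZ (-0.19 on SP0000124504).

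Some of the 73 named probes had opposite signs in the 2 title groups on every array, and limma called none of these differences. Part of the 73 were picked because their title groups did not overlap. The share of such probes over all probes was not computed, so no excess can be read from them. At 16 h by title minus 8 h, AT1G72910 differed by 1.04, GSTU25 by 0.87, AT3G02630 by 0.79 and COR47 by 0.25 on SP0000115724. The difference was -1.03 for AT5G02160, -0.95 for AT3G28550, -0.94 for AT2G34620, -0.82 for AT2G10940 and -0.76 for AT2G40270. It was -0.30 for FPA, and -0.46 and -0.76 for the PRK probes SP0000115782 and SP0000120986.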

How the results depend on the processing

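The probe SP0000127622 was called in FVE under all alternatives except turning the sign of the swapped arrays, which gave -0.058 in FVE and -0.036 for FVE minus the other 12 lines; SP0000115969 was then 0.17, and 54 of 75 named values changed sign. That alternative called 7 probes for the FVE mean and 0 against the other 12 lines, where limma gave 384 at an unadjusted p under 0.05. The 2 calls of the FVE mean were 5 with ratios of exactly 1 set to missing, 4 with the FVE arrays alone, 1 with only lines set against wild type and 3 with array weights. The comparison with FCA, FPA and FY had 2 calls with ratios of exactly 1 set to missing. The difference of the title groups had 1 call after scaling and 1 after quantile normalization. SP0000115969 was not called with the FVE arrays alone (adjusted p = 0.176) or with lines set against wild type only (0.0872). Leaving out single FVE arrays gave 2 to 173 calls for the FVE mean, 0 to 32 for the title groups, 1 to 4 against the other 12 lines and 0 to 4 against FCA, FPA and FY. Without replicate 2 of 8 h there were 4 calls for the FVE mean, and against the other 12 lines 4 calls of which 0 were shared. Without replicate 1 of 16 h by title, 13 of 75 named values changed sign, and without its replicate 2, 5 did. Each of these fits leaves 1 array in the group, so calls of named probes are not read from them. The cause was not tested. With the replicate number as a replicate block, 2 probes were called for the FVE mean and 0 for the title groups. The deviations of same-numbered FVE arrays correlated at 0.24 with group means only and at -0.005 after the dye term; replicate 1 is the swapped array in both FVE groups, so here pairing and dye orientation cannot be told apart. The fit of the FVE arrays alone gives no comparison with other lines, and FVE as 1 group gives no difference of the title groups. Signal over background is unknown, which leaves dim probes unmarked.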
